A study of Rattus norvegicus with 4 samples.

Results

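Ventral prostate RNA was examined for 10 genes that glucocorticoid hormones or reduced feeding are known to induce: Fkbp5, Tsc22d3, Sgk1, Zbtb16, Pdk4, Ddit4, Klf9, Txnip, Cebpd and Errfi1. They were taken as a readout of systemic effects of a high dose of PhIP, a carcinogenic heterocyclic amine that forms in cooked meat. Every probe set that the platform annotation maps to one of these symbols alone was used. This gave 15 probe sets for 9 of the 10 genes, out of 14217 genes with a probe set of their own. No probe set carries Zbtb16 alone, and that gene was not analysed here.

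The PhIP group held 4 male F344 rats given PhIP at 300 mg/kg at 6 weeks of age and killed 2 days later. The control group held 4 male F344 rats of the same age that were not given PhIP. Each array carried the mixed RNA of 2 rats, so PhIP 1, PhIP 2, control 1 and control 2 are pools, and n = 2 per group throughout. The sources used here do not say whether the controls received a vehicle, how much the rats ate, at what hour they were killed or what their blood corticosterone was. The values are MAS5 signals, which are probe set brightnesses on a linear scale that the authors had scaled to a common level per array.

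Glucocorticoids bind the glucocorticoid receptor, which chaperones hold in the cytoplasm until the hormone releases it to the nucleus, where it binds response elements in DNA. FoxO transcription factors are kept out of the nucleus by insulin signalling through Akt and enter it when insulin is low, as in fasting. Several of the genes answer to both systems, and in the prostate Fkbp5 and Zbtb16 are also known as targets of the androgen receptor, a relative of the glucocorticoid receptor.

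None of the 9 measured genes passed an adjusted p of 0.05 in the comparison of PhIP with control (limma, Benjamini-Hochberg over all probe sets). After the filter on low signals, 11 of the 15 probe sets, covering all 9 genes, were tested, and 0 passed, against 5 of all 18625 tested probe sets (0.0268%). At an unadjusted p under 0.05 the number was also 0 of 11, against 13.0% of all probe sets. Both PhIP pools lay on the same side of both control pools in 5 of the 11, 3 with PhIP higher and 2 with PhIP lower. That share is close to the 45.8% of all tested probe sets (19.8% with PhIP higher and 26.0% with PhIP lower). The median log2 fold change of the 11 was 0.07, with a range of −0.25 to 0.38, beside a median of −0.03 over all tested probe sets. The median absolute log2 fold change was 0.18 for the 11 and 0.18 for all.

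On the scale of the deposited signals, all 11 of the 95% intervals included no change and lay within a log2 change of 1 in either direction. The lowest bound was 0.591-fold, for Pdk4, and the highest was 1.92-fold, for Errfi1. These bounds depend on the scaling. With the arrays scaled to the hybridization controls, transcripts added in known amounts, 9 of the 11 intervals lay within a log2 change of 1. The highest bound was then a log2 change of 1.15, against 0.94 as deposited. Without a constant added before the logarithm, 8 of the 11 intervals lay within a log2 change of 1.

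**Figure D1:**
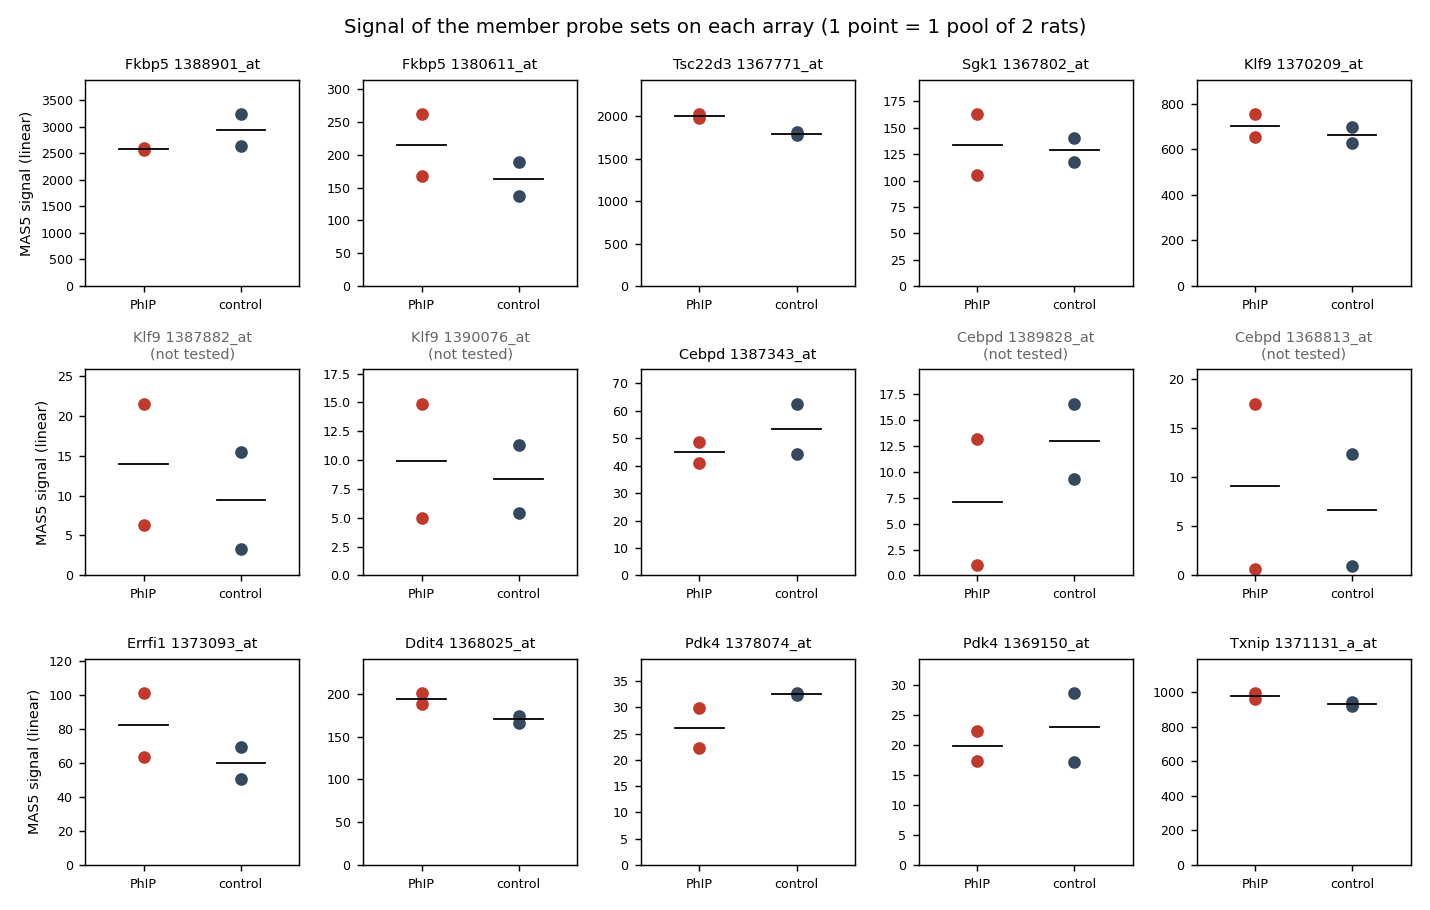
MAS5 signal (linear, each axis from 0) of all 15 probe sets of the 9 genes, with PhIP left of control; each point is 1 array, a pool of 2 rats, and the line is the group mean. Tsc22d3, Ddit4 and Txnip have both PhIP points above both control points, 1 probe set each of Fkbp5 and Pdk4 has both below, and the other 10 overlap.

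Across the arrays, the main secretory genes of the gland were bright. The secretory protein genes Pbsn, Sbp and Andpro had signals of 4273 to 10345 on all 4 arrays. The prostate genes Msmb and Acp3 were dim, with 0.4 to 2.3 and 17.5 to 26.8. Of genes listed for other accessory glands, the seminal vesicle gene Svs4 had 180 to 256, Svs5 had 0.4 to 2.7 and Tgm4 had 12.9 to 48.8. Markers of the gland's cell types differed between the groups. The summed signal of 7 luminal epithelial markers was 8652 and 8751 in the PhIP pools and 7403 and 7409 in the control pools, with all 7 higher in PhIP. The sum of 8 smooth muscle markers was 4134 and 4071 in PhIP and 6788 and 6815 in control, with all 8 lower in PhIP. In such bulk tissue, fewer cells of a type and less RNA per cell cannot be told apart. The actin signal at the 3′ end over that at the 5′ end, a sign of RNA quality, was highest in control 2 (3.93 and 3.49 in PhIP, 4.18 in control 1 and 5.71 in control 2).

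Fkbp5 encodes a co-chaperone that lowers the hormone affinity of the glucocorticoid receptor, so that its induction forms a feedback loop. The gene lies at chr20:6458931-6577227 (GRCr8). Its brighter probe set, 1388901_at, had signals of 2600.4 and 2557 in the PhIP pools and 2644 and 3237 in the control pools. The PhIP pools were both below the control pools, but PhIP 1 lay close to control 1, and control 2 stood apart from the other 3 arrays. The log2 fold change was −0.18 ± 0.10 (SE, adjusted p = 0.481), with an interval of 0.753-fold to 1.03-fold. Its sign turned to 0.046 after scaling to the hybridization controls. Without control 1 the value was −0.33 with an adjusted p of 0.00684, the one setting in which any of the 11 probe sets passed. In that setting 2334 of all tested probe sets passed.

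The other Fkbp5 probe set, 1380611_at, went the opposite way. It had signals of 168 and 262 in PhIP and 189 and 138 in control, so that PhIP 2 was the highest array while PhIP 1 lay between the control pools. This gave a log2 fold change of 0.36 ± 0.23 (adjusted p = 0.537). The probe sets of this gene therefore gave no common direction. Of 10 androgen-induced genes listed, Fkbp5 among them, 8 were measured, with summed signals of 10409 and 10807 in PhIP and 10842 and 10582 in control. Most of these sums came from Pbsn, Slc45a3 and Fkbp5 itself (means of 4458, 2929 and 2579 in PhIP, and 4648, 2380 and 2941 in control). Without overlap of the groups, 1 of the 8 was higher in PhIP (Slc45a3) and 2 were lower (Fkbp5 and Acsl3), named after their values were known. Of all tested probe sets, 19.8% were higher and 26.0% lower without overlap.

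Tsc22d3 encodes GILZ, a leucine zipper protein that mediates anti-inflammatory actions of glucocorticoids and is also a known FoxO target. It lies at chrX:109006410-109066389. Its signals were 1977 and 2025 in PhIP and 1776 and 1809 in control. Both PhIP pools were above both control pools, and the pools of each group were close to each other. Of the 11 probe sets it had the lowest unadjusted p (0.0585), with a log2 fold change of 0.16 ± 0.07 (adjusted p = 0.405) and an interval of 0.995-fold to 1.25-fold. The direction held in all 16 alternatives, but only the normalizations could have turned it, since the groups did not overlap. Across the normalizations the value ranged from 0.11 to 0.39 and the adjusted p from 0.116 to 0.567.

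The RefSeq start-site windows (250 bases before to 50 after a start, GRCr8) are shown for Tsc22d3 and Klf9, since in these the letters of a glucocorticoid or FoxO motif occur. Capitals mark the match. The FoxO motif GTAAACA, searched on both strands, occurs in a Tsc22d3 window on the minus strand at chrX:109009985-109010284, 162 bases before the start, and in the Klf9 window on the plus strand at chr1:230126396-230126695, 133 bases before the start. The glucocorticoid response element core ACANNNTGT, which reads the same on both strands, occurs in another Tsc22d3 window on the minus strand at chrX:109065381-109065680, 183 bases before that start.
Tsc22d3, FoxO letters: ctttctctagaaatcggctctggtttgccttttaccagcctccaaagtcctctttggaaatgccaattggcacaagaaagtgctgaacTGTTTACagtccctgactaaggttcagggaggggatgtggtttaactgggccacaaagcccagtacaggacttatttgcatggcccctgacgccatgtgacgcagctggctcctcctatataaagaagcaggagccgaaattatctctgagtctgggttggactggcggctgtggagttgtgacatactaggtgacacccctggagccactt
Klf9, FoxO letters: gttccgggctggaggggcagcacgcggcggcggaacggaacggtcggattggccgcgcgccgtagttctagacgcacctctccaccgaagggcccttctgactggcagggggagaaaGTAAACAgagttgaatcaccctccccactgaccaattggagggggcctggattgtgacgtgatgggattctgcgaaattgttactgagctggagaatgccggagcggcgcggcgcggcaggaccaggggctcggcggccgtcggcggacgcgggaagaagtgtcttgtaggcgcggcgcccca
Tsc22d3, response element core: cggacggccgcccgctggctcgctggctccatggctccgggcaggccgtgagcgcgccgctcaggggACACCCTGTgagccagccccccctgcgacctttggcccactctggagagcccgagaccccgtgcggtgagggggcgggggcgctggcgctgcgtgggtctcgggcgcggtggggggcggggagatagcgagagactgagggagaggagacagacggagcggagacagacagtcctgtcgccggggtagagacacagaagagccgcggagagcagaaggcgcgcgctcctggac
In all 33469 windows of the table, 3.78% hold the FoxO motif and 6.86% the response element core. Windows were found for 7 of the genes (Sgk1, Klf9, Pdk4, Errfi1, Fkbp5, Ddit4 and Tsc22d3), 11 in all, of which 2 held the FoxO motif and 1 the core. The single arm AGAACA of that element (20.7% of all windows) and the E-box CACGTG (6.42%) were in 0 of the 11. The E-box is the motif of the glucose sensors that control Txnip. No window was found for Txnip or Cebpd, so the start of Txnip was not searched for it. A match describes letters and is not a binding site.

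Klf9 encodes a Krüppel-like zinc finger factor that glucocorticoids and thyroid hormone induce. It lies at chr1:230126646-230151641. Its bright probe set, 1370209_at, had signals of 754 and 653 in PhIP and 625 and 696 in control. The groups overlapped, since PhIP 2 lay between the control pools. The log2 fold change was 0.09 ± 0.11 (adjusted p = 0.759), and −0.015 without PhIP 1. Its other 2 probe sets were below the filter, with signals of 3.3 to 21.5 over all arrays and overlapping groups.

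Cebpd encodes C/EBP delta, a transcription factor of the acute phase response and of early fat cell differentiation. It lies at chr11:98268856-98269994. The tested probe set, 1387343_at, had signals of 48.5 and 41.1 in PhIP and 62.6 and 44.1 in control. Control 1 was the highest array and the other 3 lay close together. PhIP differed from control by a log2 fold change of −0.20 ± 0.21 (adjusted p = 0.714), and its sign turned to 0.031 after scaling to the hybridization controls and to 0.015 without control 1. The other 2 probe sets were below the filter, with signals of 0.7 to 17.5.

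Sgk1 encodes a kinase related to Akt that glucocorticoids and mineralocorticoids induce and that phosphorylates FoxO3. It lies at chr1:24799391-24916886. Its signals at 1367802_at were 163 and 105 in PhIP and 118 and 141 in control. The PhIP pools lay on either side of both control pools, so that the spread within PhIP was wider than any gap between the groups. On average the log2 fold change was 0.03 ± 0.21 (adjusted p = 0.965), and −0.09 without control 1 and −0.27 without PhIP 1.

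Errfi1 encodes Mig6, an inhibitor of the epidermal growth factor receptor that glucocorticoids induce. It lies at chr5:166606841-166620124. Its signals were 101 and 63.3 in PhIP and 50.7 and 69.3 in control. PhIP 1 was the highest array, while PhIP 2 lay between the control pools. The log2 fold change, 0.38 ± 0.24, had the largest value of the 11 in the higher direction (adjusted p = 0.540). As at Sgk1, PhIP 1 exceeded PhIP 2, with a ratio of 1.59 at Errfi1 and 1.55 at Sgk1, and control 2 exceeded control 1 in both. The median absolute log2 difference between the PhIP pools was 0.14 over all tested probe sets and 0.20 over the 11, against 0.60 for Errfi1 and 0.58 for Sgk1. Fkbp5 1380611_at had the opposite pattern, with log2 differences of replicate 1 minus replicate 2 of −0.61 in PhIP and 0.43 in control.

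Ddit4 encodes REDD1, which inhibits mTORC1 signalling under stress and is also a known target of p53 and ATF4. It lies at chr20:28434938-28437037. Its signals were 188 and 201 in PhIP and 166 and 174 in control. Both PhIP pools were above both control pools. The log2 fold change was 0.18 ± 0.13 (adjusted p = 0.578), with an interval of 0.923-fold to 1.40-fold. The direction was the same in all 16 alternatives (0.14 to 0.41). As at Tsc22d3, only the normalizations could have turned it.

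Pdk4 encodes the pyruvate dehydrogenase kinase that fasting induces through FoxO, PPAR and glucocorticoid signalling to spare glucose. It lies at chr4:34558327-34568329. Probe set 1378074_at had signals of 22.2 and 29.8 in PhIP and 32.7 and 32.3 in control, and 1369150_at had 17.4 and 22.3 in PhIP and 17.2 and 28.7 in control. The groups did not overlap in the first and did in the second. These are dim signals, at percentiles 53.4 and 47.6 of all probe sets by mean signal. The log2 fold changes were −0.25 ± 0.22 (adjusted p = 0.655) and −0.13 ± 0.27 (adjusted p = 0.859). The second turned to 0.011 after median centring, to 0.012 after quantile normalization, to 0.023 after cyclic loess, to 0.10 after scaling to the hybridization controls and to 0.13 without control 2.

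Pdk4 is abundant in muscle and fat, whose markers also differed between pools. Of 9 skeletal muscle markers 8 were measured, with sums of 512 and 434 in PhIP and 916 and 1682 in control. Without overlap, 4 were lower in PhIP. The sum of control 1 came mostly from Acta1 (658) and Tnnc2 (198). Myl1, Myh4, Tnnt3 and Pvalb had 5.2, 0.5, 9.5 and 2.3 in control 1. In control 2 they had 306, 165, 60.6 and 19, and in the PhIP pools 1.2 to 9.9. Of 8 adipocyte markers all were measured, with sums of 126 and 220 in PhIP and 406 and 283 in control. Without overlap, 3 were lower and 1 was higher, and 4 of the 8 were above the filter on low signals. None of these markers was at 0 in all arrays. Their part in the Pdk4 values was not tested.

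Txnip encodes thioredoxin-interacting protein, which limits glucose uptake and is induced by glucose through MondoA as well as by FoxO and glucocorticoids. It lies at chr2:186781933-186785736. Its signals were 994 and 957 in PhIP and 921 and 941 in control. The groups did not overlap, but PhIP 2 exceeded control 2 by a small amount. The log2 fold change was 0.07 ± 0.08 (adjusted p = 0.757), with an interval of 0.914-fold to 1.2-fold.

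**Figure D2:**
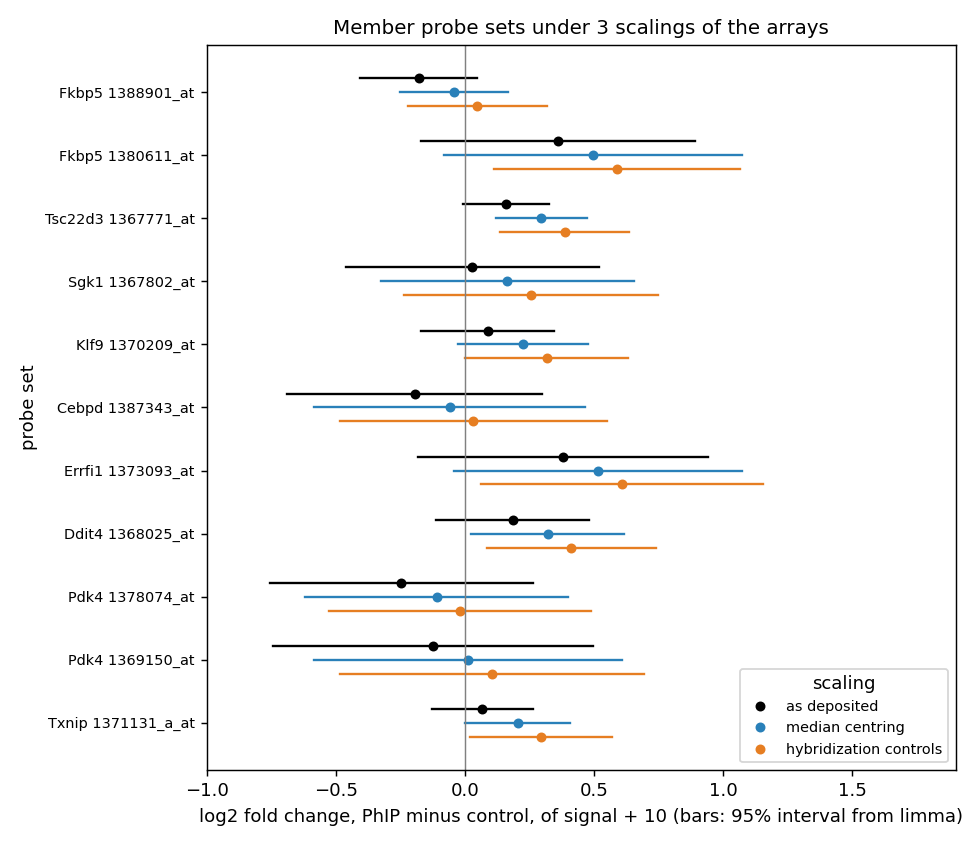
Log2 fold change of PhIP over control (points) with 95% limma intervals (bars) for the 11 tested probe sets, with the arrays as deposited (black), after median centring (blue) and after scaling to the hybridization controls (orange). Every black bar crosses 0, and the orange points lie to the right of the black ones, with 10 of 11 above 0 against 7 as deposited.

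How the arrays are put on a common level moved all of these values together. The authors' scaling equalised the trimmed mean. Median centring raised the median log2 fold change of all probe sets from −0.03 to 0.11, and scaling to the 18 hybridization control probe sets, all lower in PhIP, raised it to 0.20. The median of the 11 was then 0.20 and 0.29. At an unadjusted p under 0.05 there were 3 of 11 after median centring (Tsc22d3, Ddit4 and Txnip), against 17.0% of all probe sets. After scaling to the hybridization controls there were 5 (those 3, Errfi1 and Fkbp5 1380611_at), against 22.8% of all. In both, 0 passed the adjustment, with lowest adjusted p of 0.163 and 0.116, each at Tsc22d3.

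The receptor and the enzymes that set hormone access were read from a list of 14 genes, of which 11 were tested. None had an unadjusted p under 0.05, and the median log2 fold change was 0.07. Nr3c1, the glucocorticoid receptor, had signals of 228 and 236 in PhIP and 223 and 276 in control (−0.09 ± 0.14, adjusted p = 0.794), with the sign turned after median centring (0.04) and hybridization control scaling (0.13). Nr3c2, the mineralocorticoid receptor, had 215 and 178 in PhIP and 196 and 176 in control. In both receptors the groups overlapped. Hsd11b1, which regenerates active corticosterone in the cell, had 34.8 and 24.4 in PhIP and 50 and 38.8 in control. Both PhIP pools were lower, with a log2 fold change of −0.46 ± 0.23 (adjusted p = 0.440). Hsd11b2, which inactivates corticosterone, was below the filter, with 24.0 and 6.5 in PhIP and 3.6 and 22.1 in control. The co-chaperone genes Fkbp4 (0.19 ± 0.09, adjusted p = 0.427) and Stip1 (0.20 ± 0.10, adjusted p = 0.465) were higher in both PhIP pools. So was the chaperone gene Hsp90ab1 (0.07 ± 0.07, adjusted p = 0.690), while in another of its probe sets the groups overlapped (0.27 ± 0.14). Without overlap, 5 of the 11 were higher and 1 lower, against 19.8% and 26.0% of all tested probe sets.

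Other genes induced through the glucocorticoid receptor gave values on both sides. Of 27 listed, 23 were tested, and 0 passed the adjustment. This list, like the others, was chosen with earlier results known and takes the brightest probe set per gene. Its shares are therefore not like for like with those of all probe sets. The median log2 fold change was 0.05, and it was −0.12 without control 1 and 0.008 without control 2. An unadjusted p under 0.05 was found for 8 of the 23 (34.8%), 4 higher (5.36% of all probe sets) and 4 lower (7.61% of all). The split was 8 higher and 1 lower after scaling to the hybridization controls (20.8% and 1.92% of all probe sets), 7 and 4 after median centring (13.5% and 3.46%) and 1 and 4 with eBayes without trend (3.78% and 8.29%). It was 6 and 4 without control 1 (13.8% and 14.5% of all), 7 and 5 without control 2 (7.87% and 8.09%), 0 and 4 without PhIP 1 (2.12% and 3.77%) and 1 and 5 without PhIP 2 (1.73% and 3.89%). The lower 4 led the list. Mt2A, a metallothionein gene, had signals of 285 and 288 in PhIP and 412 and 517 in control (−0.67 ± 0.13, adjusted p = 0.115). Both PhIP pools were below both control pools. Tgm2, a transglutaminase gene, stood at −0.48 ± 0.10 (−0.31 ± 0.34 in another probe set), Crispld2, a secreted protein gene, at −0.54 ± 0.12 (−0.20 ± 0.15 in another), and Cavin2, a caveolae gene, at −0.53 ± 0.13. The adjusted p of these 3 were 0.131, 0.155 and 0.172. Markers of smooth muscle, fibroblasts and endothelium were lower in the same pools (8 of 8, 6 of 7 and 5 of 6 without overlap). Endothelial sums were 206 and 209 in PhIP and 290 and 301 in control. Those of luminal epithelium were higher (7 of 7). The part of these cell types in the values was not tested.

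The higher 4 were Gadd45b, a stress sensor of the Gadd45 family (0.49 ± 0.15, adjusted p = 0.258), Klf15, a Krüppel-like factor of fasting metabolism (0.31 ± 0.10, adjusted p = 0.283), Dusp1 and Cebpb. Gadd45b and Klf15 were outside the naming rule and were chosen after seeing their values, to complete the count. The counts rest on the brightest probe set per gene, and others differed. Klf15 stood at 0.63 ± 0.30 in another. Glul, not counted at 0.15 ± 0.08, stood at 0.64 ± 0.19 and 0.34 ± 0.09 in others (adjusted p = 0.249 and 0.216). Tsc22d1 stood at 0.12 ± 0.08, and at 0.40 ± 0.14 and −0.62 ± 0.22 in others. Scnn1a stood at −0.20 ± 0.12, and at 0.51 ± 0.26 in another. These were also chosen after seeing their values. Dusp1, the phosphatase that switches off MAP kinases, had signals of 462 and 482 in PhIP and 402 and 360 in control. Both PhIP pools were higher (0.30 ± 0.11, adjusted p = 0.317), while in another probe set the groups overlapped (0.60 ± 0.38). Cebpb, the partner of Cebpd, stood at 0.34 ± 0.13 (adjusted p = 0.344). Per1, a clock gene that glucocorticoids induce acutely, had 142 and 168 in PhIP and 122 and 173 in control, with overlap. Angptl4, an inhibitor of lipoprotein lipase, had 40.2 and 27.8 in PhIP and 45.1 and 51.1 in control, both PhIP pools being lower (−0.41 ± 0.22, adjusted p = 0.469).

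Of a list of 29 FoxO factors and response genes, 24 were tested and 0 passed the adjustment. The median log2 fold change was 0.08, and it was 0.15 without control 1 and 0.01 without control 2. At an unadjusted p under 0.05, 5 were higher (20.8% of 24, against 5.36% of all probe sets) and 0 lower. With the filter at the 60th percentile, 5 of 21 were higher, against 6.86% of all. The list was chosen with earlier results of these data known and takes the brightest probe set per gene. Its share is therefore not like for like with that of all probe sets and is no independent support. Gadd45a, a growth arrest gene that p53 also induces, had signals of 256 and 214 in PhIP and 165 and 140 in control (0.59 ± 0.15, adjusted p = 0.184). Ccng2, which encodes the growth-inhibitory cyclin G2, had 142 and 156 in PhIP and 113 and 100 in control (0.45 ± 0.15, adjusted p = 0.279). In both genes the PhIP pools were above the control pools. Tob1, an antiproliferative gene, stood at 0.43 ± 0.14 (adjusted p = 0.286). Cdkn1b, which encodes the Cdk inhibitor p27, stood at 0.26 ± 0.10 (adjusted p = 0.348), and Rbl2, which encodes the pocket protein p130 and was chosen after seeing its value, at 0.29 ± 0.12 (adjusted p = 0.372). These counts moved with the setting. At the same p, 7 were higher and 1 lower without control 1 (13.8% and 14.5% of all probe sets) and 6 higher and 1 lower without control 2 (7.87% and 8.09%). Without PhIP 1, 0 were higher and 0 lower (2.12% and 3.77% of all), and without PhIP 2, 1 was higher and 0 lower (1.73% and 3.89%). Median centring gave 7 higher and 0 lower (13.5% and 3.46% of all), and scaling to the hybridization controls 9 and 0 (20.8% and 1.92%). Quantile normalization gave 4 higher and 1 lower (5.47% and 6.41% of all), and cyclic loess 3 and 1 (5.68% and 6.36%). With eBayes without trend, 3 were higher and 0 lower (3.78% and 8.29% of all). The markers of luminal epithelium were higher in the same pools (7 of 7 without overlap) and those of smooth muscle and fibroblasts lower (8 of 8 and 6 of 7), and their part in these values was not tested.

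None of the FoxO factors was among the 5. Foxo1 had 263 and 265 in PhIP and 255 and 257 in control, both PhIP pools being higher (0.04 ± 0.11, adjusted p = 0.892). Foxo3 had 367 and 330 in PhIP and 282 and 376 in control, with overlap (0.09 ± 0.15, adjusted p = 0.816). Foxo4, chosen after seeing its value, had 119 and 97.5 in PhIP and 96.4 and 84.9 in control (0.23 ± 0.17, adjusted p = 0.593). Its groups did not overlap, but PhIP 2 lay close to control 1. Irs2, the insulin receptor substrate that FoxO induces in fasting, had 26.4 and 50.8 in PhIP and 48.2 and 40.7 in control, with overlap (−0.21 ± 0.27, adjusted p = 0.763).

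Glucose sensing and lipid fasting genes gave 0 of 14 tested at an unadjusted p under 0.05, with a median of 0.06. Cpt1a, the gate of mitochondrial fatty acid oxidation, had 397 and 445 in PhIP and 332 and 379 in control (0.24 ± 0.12, adjusted p = 0.45). Arrdc4, the arrestin-like gene that responds to glucose together with Txnip, had 51.4 and 51.8 in PhIP and 53.9 and 54.3 in control (−0.06 ± 0.17, adjusted p = 0.907), with the sign turned after median centring (0.08). Mlxipl, the glucose sensor ChREBP, stood at −0.46 ± 0.38 (adjusted p = 0.636) and Ucp3, a mitochondrial carrier, at −0.33 ± 0.29 (adjusted p = 0.651). Both were dim and their groups overlapped. Mlxipl had 5.8 and 23.6 in PhIP and 17.3 and 26.7 in control, and Ucp3 had 21.3 and 16 in PhIP and 18.4 and 35.2 in control. Acadl, an acyl-CoA dehydrogenase, stood at 0.13 ± 0.11 (adjusted p = 0.653). Pdk2, a paralogue of Pdk4, had 78.4 and 60 in PhIP and 71.5 and 84.6 in control, with overlap.

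Of 27 paralogues and partners of the genes, several of which are also on the other lists, 26 were tested and 0 passed the adjustment. At an unadjusted p under 0.05, 2 were higher and 1 lower (11.5% of 26, against 13.0% of all). Nedd4l, the ubiquitin ligase that Sgk1 inhibits, had 51.2 and 53.1 in PhIP and 80.0 and 73.2 in control. Both PhIP pools were lower (−0.48 ± 0.17, adjusted p = 0.305). Arrdc3, a paralogue of Txnip, had 184 and 180 in PhIP and 139 and 146 in control (0.33 ± 0.13, adjusted p = 0.348). Over all lists, 15 of 89 tested genes had an unadjusted p under 0.05 (16.9%, against 13.0% of all probe sets), 10 higher and 5 lower. The number was 25 without control 1 (28.3% of all probe sets being under that p), 26 without control 2 (16.0% of all), 4 without PhIP 1 (5.89%) and 8 without PhIP 2 (5.62%). The median log2 fold change over all lists was 0.07, and it was 0.05 without control 1 and 0.02 without control 2.

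**Figure D3:**
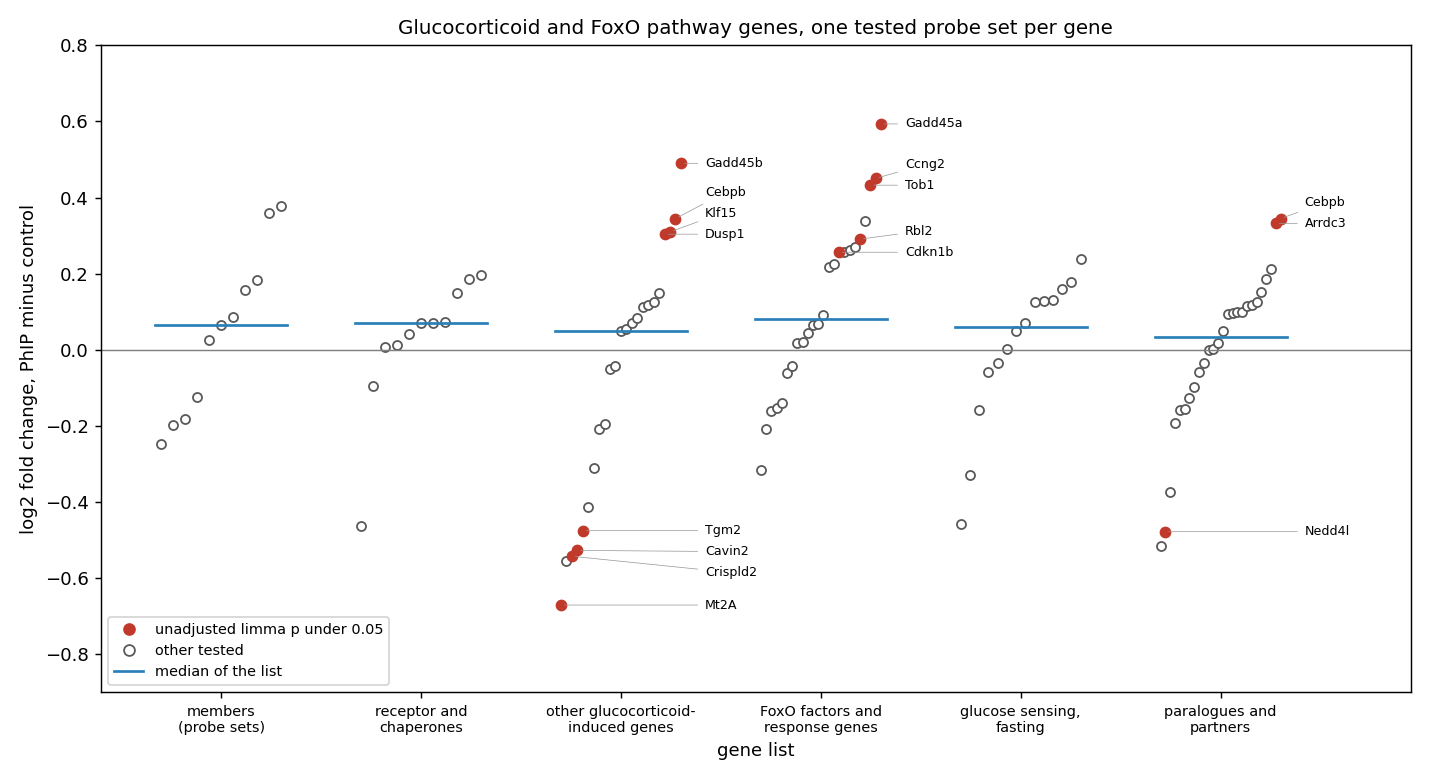
Log2 fold change of PhIP over control for the 11 tested probe sets of the 9 genes and for the tested genes of 5 related lists, each point 1 probe set; filled points have an unadjusted limma p under 0.05 and are named, and the line is the median of the list. The medians lie between 0.03 and 0.08, and filled points stand in 3 of the lists but not among the 9 genes.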

How the data were processed

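The deposited values are MAS5 intensities on a linear scale, 1 per probe set and array, which the authors made with MAS5 per the submitters' processing notes, from biotin-labelled cRNA of 5 µg total RNA per the labels' protocols. No MAS5 version, scaling target or detection call is stated there. The trimmed means (2% at each end) of the arrays differed by at most 0.0013%. The number of arrays limits the precision. Nothing in the labels ties the replicate numbers of the groups.

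Of 31099 probe sets, 57 manufacturer's controls were left out. The platform annotation gave 20832 probe sets 1 symbol, 436 several and 9831 none. Of the single symbols, 20758 outside the controls matched RefSeq (GRCr8) by Entrez identifier, and coordinates and sequences are from there. Signals were analysed as log2(signal + 10), which understates changes of dim genes. Probe sets above the 40th percentile of the mean (18625, signal plus constant 24.3 or more) entered the test, leaving out 12417. Groups were compared by limma's moderated test with an intensity trend (R 4.3.3, limma 3.58.1), two-sided, on 2 residual and 5.67 prior degrees of freedom, with Benjamini-Hochberg adjustment at 0.05. A permutation test over 4 arrays cannot go below p = 0.333. Plots used Python 3.11.15 and matplotlib 3.10.9.

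On simulated data for this comparison (18625 probe sets, 50 changed per size), 0%, 14%, 44% and 60% of log2 changes of 0.5, 1, 1.5 and 2 passed, beside 1 of 18425 unchanged ones. The simulation took the spread of each probe set on these arrays as its true spread and changed few probe sets. Its percentages may therefore differ from those of the real arrays.

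The members and lists were chosen with earlier results of these data known, so their shares at an unadjusted p are no independent support. A pathway gene was represented by its brightest tested probe set. The rule named, per list, up to 4 genes by the size of the moderated statistic, plus Nr3c1, Nr3c2, Hsd11b1, Hsd11b2, Fkbp4, Per1, Dusp1, Foxo1, Foxo3, Irs2, Arrdc4, Angptl4 and Pdk2. Alternatives were other constants, filters and normalizations, eBayes without trend or robust, the replicate block, and leaving out each array.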

Additional observations from a re-analysis of the deposited data

How the results depend on the processing

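With no array left out, 0 of the 11 probe sets of the stress and feeding genes passed the adjustment in any alternative. Without single arrays the number was 0 to 1, and the number at an unadjusted p under 0.05 was 1 to 2. Median centring gave 3 at that level and hybridization control scaling 5, with medians of the 11 of 0.20 and 0.29. The median was −0.0064 to 0.15 without single arrays and 0.07 with the replicate block, with 13 list genes at an unadjusted p under 0.05. The list genes at that level numbered 23 with median centring (17.0% of all probe sets), 30 with hybridization control scaling (22.8%) and 4 to 26 without single arrays (5.62% to 28.3%). Over all probe sets, the number past the adjustment was 5 as reported. It was 22 with a constant of 20, 44 with the filter at the 60th percentile and 0 without a filter, with eBayes without trend, after quantile normalization or after median centring. It was 3 after cyclic loess, 165 after scaling to the hybridization controls, 52 with robust eBayes, 35 with the replicate block and 0 to 2334 without single arrays. Deviations of arrays with the same replicate number correlated at −0.06 over tested probe sets, so the numbers were not taken to pair the pools.

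Signs turned for Pdk4 1369150_at (0.012 after quantile normalization, 0.011 after median centring, 0.023 after cyclic loess, 0.10 after scaling to the hybridization controls, −0.38 to 0.13 without single arrays) and Fkbp5 1388901_at (0.046 after that scaling). They also turned for Cebpd (0.031 after that scaling, −0.41 to 0.015 without single arrays), Sgk1 (−0.27 to 0.32) and Klf9 (−0.015 to 0.19). The causes were not tested. Where an array was left out, the lone pool of its group was assumed to vary like the other group. Of simulated log2 changes of 0.5 and 1, 0% and 14% were called at this number of arrays, under the spread assumed in the simulation.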
